A study of Homo sapiens with 6 samples.

Results

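Before a cell divides it copies its chromosomes once, and the proteins that do so act in a fixed order. The origin recognition complex marks start sites, CDC6 and CDT1 load the MCM2-7 helicase there, CDC45 and the GINS complex turn it into the active helicase, and the polymerases, the sliding clamp PCNA and the nucleotide-supplying enzymes then build the new strands. Most of these genes are transcribed as cells pass from G1 into S phase, under the E2F factors and their RB family partners. The 44 DNA replication genes described here were taken by symbol and Ensembl identifier from an expression table of 58288 genes: 6 genes of origin recognition, 3 of helicase loading and its inhibitor, the 6 MCM2-7 subunits, 6 of helicase activation, 4 of polymerase alpha and primase, 5 of polymerases delta and epsilon, 6 of the clamp and its loader, 2 of Okazaki fragment maturation, 3 of the single-strand binding protein RPA and 3 of deoxynucleotide supply.

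The cells were K562, an erythroleukemic line of human origin, and RNA was sequenced from stable single cell clones of it that expressed MYB with a 3xFLAG and an HA tag. MYB is a transcription factor of blood progenitors that can be conjugated to the small protein SUMO and can also bind it. The 2KR-MYB clone carried MYB whose SUMO-acceptor lysines were changed to arginine, the ANAA-MYB clone carried MYB with a mutated SUMO-binding motif, and both were grown with 200 µg/ml G418 and received the siRNA si2992 against endogenous MYB 24 h before RNA was taken. Each rescue had 3 biological replicates. Each mutant was represented by 1 clone, so a difference between the mutants and a difference between the clones cannot be told apart. The libraries of the control cells, the knockdown and the wild-type rescue were not used here, and nothing below is set against them.

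Expression was given as FPKM, fragments scaled to transcript length and to the mapped fragments of the library, a level per length that can be set side by side between genes. The values of a library summed to 579920 to 601877 in the 2KR-MYB rescue and to 583555 to 633662 in the ANAA-MYB rescue, and the number of reads behind them is unknown. All 14 erythroid markers stood at 1 FPKM or more in every library, with a summed level of 1935 to 2064 FPKM in the 2KR-MYB rescue and 2192 to 2618 FPKM in the ANAA-MYB rescue. Of the 6 markers of each other cell type, 3 lymphoid and 2 megakaryocyte genes reached 1 FPKM in every library, and of the fibroblast markers 1 did so in each rescue, COL1A1 with 2KR-MYB and COL1A2 with ANAA-MYB. The lymphoid MS4A1 and the megakaryocyte PF4 and GP9 were listed at 0 in every library. The summed lymphoid level was 41.3 to 45.4 FPKM in the 2KR-MYB rescue and 53.8 to 71.6 FPKM in the ANAA-MYB rescue, that of the fibroblast markers 2.56 to 4.50 and 3.17 to 4.51 FPKM, and that of the megakaryocyte markers 5.01 to 6.43 and 7.67 to 8.97 FPKM. Their part in the differences described below was not tested. MYB itself (ENSG00000118513, chr6:135181308-135219172 on GRCh38), to which reads of the rescue constructs can also map, stood at 69.0, 61.2 and 67.5 FPKM with 2KR-MYB and 53.6, 55.3 and 62.0 FPKM with ANAA-MYB, with a log2 fold change, 2KR-MYB minus ANAA-MYB, of 0.21 (SE 0.0698, limma adjusted p = 0.0616, SE for standard error) that did not pass the threshold of 0.01 used throughout.

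All 44 DNA replication genes were expressed in every library. Their median level was 44.7 FPKM, against 13.6 FPKM for the 12634 genes that were tested, those whose mean was 1 FPKM or more. The levels ran from GINS1, at 13.1 FPKM, and POLD3, at 14.1 FPKM, to MCM4, at 141 FPKM, CDC45, at 216 FPKM, and MCM7, at 242 FPKM. Subunits of the same complex were unequal in level. Between the highest and the lowest member, the ratio was 5.28 for the MCM2-7 helicase, 8.75 for polymerases delta and epsilon and 7.48 for RPA. Replicates were close, with a median coefficient of variation of 4.80% in the 2KR-MYB rescue and 5.22% in the ANAA-MYB rescue. In 7 genes it exceeded 10% in a rescue. It was largest in ORC4, at 19.1% with 34.5 to 50.9 FPKM among the ANAA-MYB libraries. CDT1 and GINS4 followed, at 16.5% and 15.6% among the 2KR-MYB libraries.

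**Figure D1:**
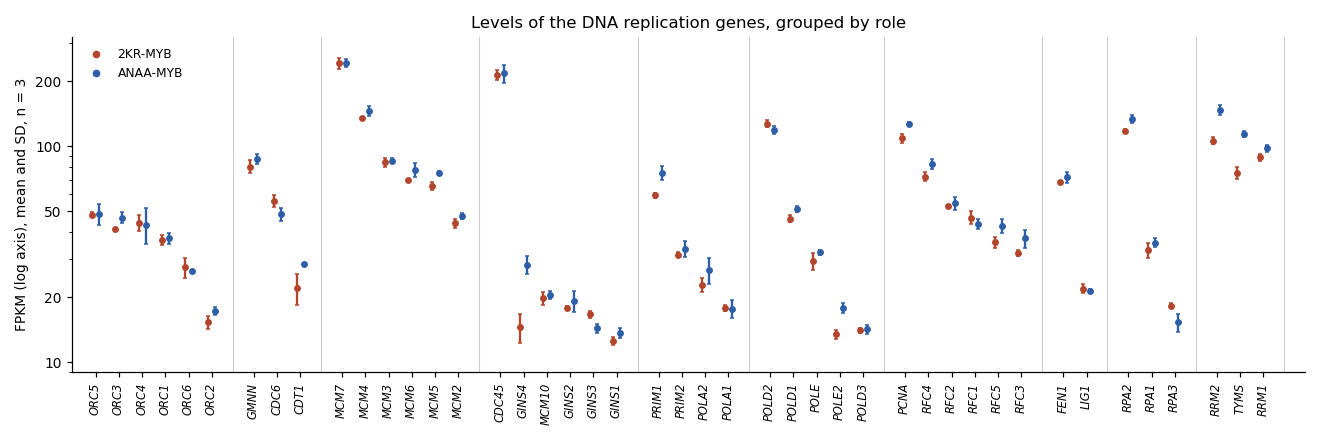
Mean level of each of the 44 DNA replication genes in FPKM on a log axis, grouped by role, with the SD of 3 libraries in the 2KR-MYB and the ANAA-MYB rescue. Most pairs of points lie close together, GINS4 lies lower in the 2KR-MYB rescue by the largest step, and the levels span 13.1 FPKM (GINS1) to 242 FPKM (MCM7).

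To ask whether the SUMO-conjugation mutant and the SUMO-binding mutant left the replication genes at different levels, the 2 rescues were compared on log2(FPKM + 1) with limma across all 12634 tested genes. A gene passed the threshold when its p, adjusted by Benjamini-Hochberg, was under 0.01. Log2 fold changes are 2KR-MYB minus ANAA-MYB, SE is their standard error, and this scale understates the change of low genes. Of the 44 genes, 5 were lower with 2KR-MYB than with ANAA-MYB (11.4%): GINS4, of the helicase-activating GINS complex, the thymidylate synthase gene TYMS, the ribonucleotide reductase gene RRM2, the polymerase epsilon subunit gene POLE2 and the primase gene PRIM1. Among all tested genes, 7.42% were lower and 5.57% higher at this threshold, 13% in either direction. With any 1 library left out, 3 to 5 of the replication genes passed, and the count was 3 without the first or the second 2KR-MYB library and without the first ANAA-MYB library, while 831 to 1139 of all tested genes passed in place of 1642. No replication gene passed as higher by limma. At an unadjusted limma p under 0.05 there were 3 higher and 17 lower of the 44, beside 2249 higher and 2732 lower of all 12634 tested genes. The log2 fold change was below 0 in 35 of the 44 genes, 79.5%, against 53.2% of all tested genes, and its median was -0.11 against -0.01. The shift was small for most of them, and how many lay below 0 depended on the scaling between libraries: 29 with upper quartile scaling and 28 with quantile normalization, where all tested genes were below 0 in 45.0% and 49.1%. Set against the median of all tested genes under the same scaling, the median of the members was -0.09, -0.09 and -0.07 in turn.

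At an adjusted p under 0.05 from the same limma fit, 12 replication genes were lower (27.3%) and 2 higher (4.55%), against 14.9% and 12% of all tested genes. The 12 were ORC3, CDT1, MCM5, GINS4, PRIM1, POLE2, PCNA, RFC4, RFC5, RPA2, RRM2 and TYMS, and the 2 were GINS3 and RPA3. Under upper quartile scaling these counts were 10 lower and 3 higher, against 11.9% and 15.9% of all tested genes, and with quantile normalization 8 lower and 3 higher, against 13.2% and 14.2%. Without a filter on low values 8 were lower, against 5.12% of all genes then tested. The count of 12 was 6 without replicate 1 of the 2KR-MYB rescue (against 10.0% of all tested genes), 8 without replicate 2 (10.7%) and 10 without replicate 3 (12.6%). It was 12 without replicate 1 of the ANAA-MYB rescue (11.6%) and 7 without replicate 2 (10.4%) or replicate 3 (11.3%), and the higher genes were 0 or 1 in these 6 fits. In 18 genes every 2KR-MYB library lay below every ANAA-MYB library (40.9%, against 24.8% of all tested genes), and in 3 genes, CDC6, GINS3 and RPA3, every 2KR-MYB library lay above (6.82%, against 20.1%). With 3 libraries against 3 an exact two-sided permutation test cannot give a p below 0.1, and 21 of the 44 genes reached that value.

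Library by library the shift had the same direction, and its size differed between libraries. The FPKM of the 44 genes added up to 0.425%, 0.431% and 0.434% of the whole library in the 2KR-MYB rescue and to 0.461%, 0.446% and 0.450% in the ANAA-MYB rescue. The 2 groups of libraries did not overlap. Such a sum weighs abundant genes most, and TYMS and RRM2, which passed the threshold, are in it. The median deviation of the 44 genes from their own mean over the 6 libraries, less that of all tested genes, was -0.07, -0.05 and -0.03 on the log2 scale in the 2KR-MYB libraries and 0.0015, 0.06 and 0.08 in the ANAA-MYB libraries.

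**Figure D2:**
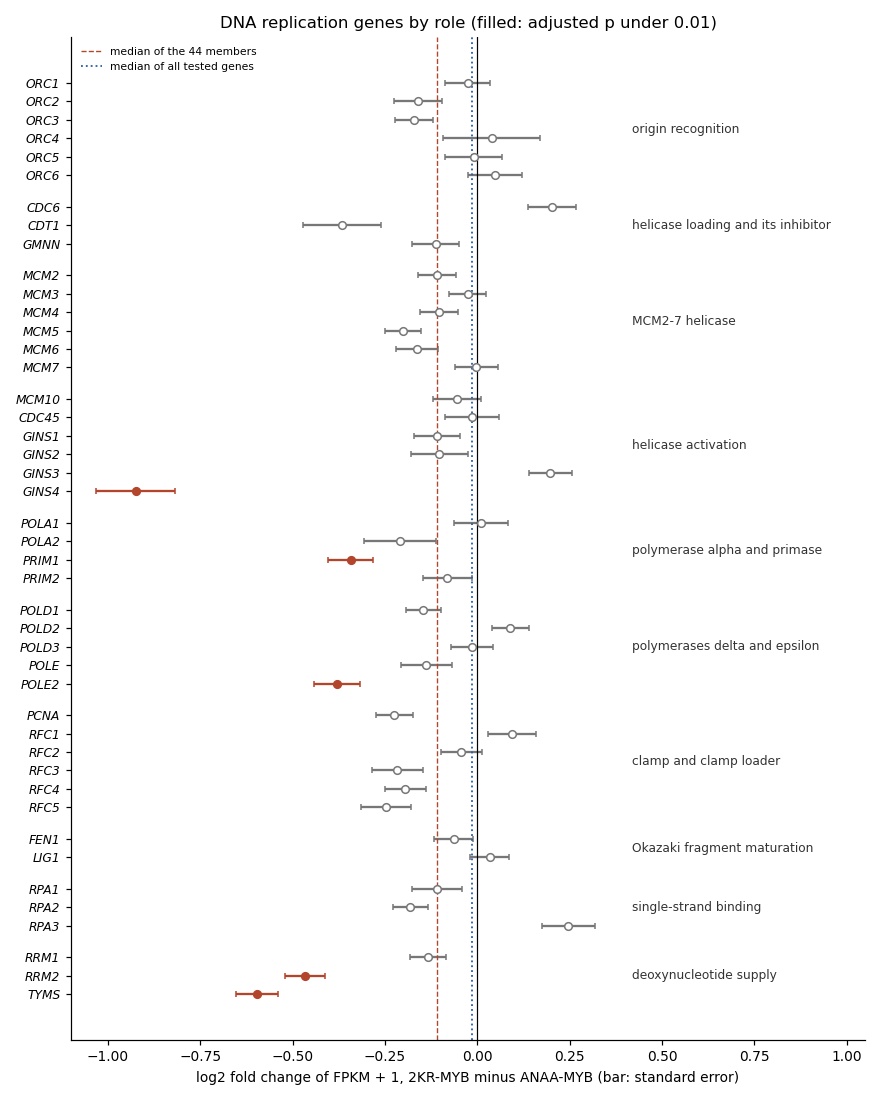
Log2 fold change of FPKM + 1, 2KR-MYB minus ANAA-MYB, for each of the 44 genes by role, with bars of 1 standard error from limma and filled points for an adjusted p under 0.01. The 5 filled points, GINS4, PRIM1, POLE2, RRM2 and TYMS, all lie below 0, and the dashed line of the members' median (-0.11) lies left of the dotted line of all tested genes (-0.01).

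Origin recognition was among the groups with the smallest shift. The median log2 fold change of the 6 ORC genes was -0.02, and none passed the threshold by limma. ORC3, a core subunit, stood at 41.2, 40.9 and 42.0 FPKM with 2KR-MYB and 44.8, 45.9 and 49.7 FPKM with ANAA-MYB, with a log2 fold change of -0.17 (SE 0.0518, limma adjusted p = 0.0422). Its libraries did not overlap. ORC2, another core subunit, stood at 15.4, 14.3 and 16.4 FPKM with 2KR-MYB and 16.6, 17.1 and 18.1 FPKM with ANAA-MYB, also without overlap, with a log2 fold change of -0.16 (SE 0.0651, limma adjusted p = 0.104). The other 4 overlapped between the rescues: ORC1, the subunit whose level in many cells varies with the cell cycle, had a log2 fold change of -0.03, ORC4 of 0.04, ORC5 of -0.01 and ORC6 of 0.05.

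The 2 helicase loaders had fold changes of opposite sign, and neither passed the threshold. CDT1, which brings the MCM2-7 ring to the origin, stood at 23.4, 24.8 and 17.9 FPKM with 2KR-MYB and 28.4, 28.0 and 28.7 FPKM with ANAA-MYB. Of the 2KR-MYB libraries, replicate 3 was well below the other 2, and all 3 were below the ANAA-MYB libraries, with a log2 fold change of -0.37 (SE 0.107, limma adjusted p = 0.0371) that was -0.23 without that library. CDC6, the ATPase that works with it, stood at 52.1, 58.5 and 57.0 FPKM with 2KR-MYB and 45.6, 47.7 and 52.0 FPKM with ANAA-MYB, higher in each 2KR-MYB library than in any ANAA-MYB library by a narrow margin, with a log2 fold change of 0.20 (SE 0.0655, limma adjusted p = 0.0535). GMNN encodes geminin, the inhibitor that holds CDT1 back after S phase has begun, and stood at 80.5 ± 5.50 FPKM against 87.1 ± 4.54 FPKM (SD, n = 3), with a log2 fold change of -0.11 and overlapping libraries.

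The 6 genes of the MCM2-7 ring, the core of the replicative helicase, all had log2 fold changes below 0, with a median of -0.11 and a range of -0.20 to -0.0026, and none passed the threshold. With upper quartile scaling MCM3 and MCM7 lay above 0, at 0.02 and 0.04, as they did with quantile normalization, at 0.03 and 0.04, and without the first 2KR-MYB library, at 0.01 and 0.05. MCM5 stood at 62.1, 67.8 and 66.5 FPKM with 2KR-MYB and 76.2, 73.4 and 76.6 FPKM with ANAA-MYB (-0.20 log2 fold change, SE 0.0492, limma adjusted p = 0.0193). For MCM6 the values were 68.7, 70.0 and 69.7 FPKM with 2KR-MYB and 73.4, 76.4 and 84.3 FPKM with ANAA-MYB (-0.16 log2 fold change, SE 0.0571, limma adjusted p = 0.0683), with a log2 fold change of -0.11 without replicate 3 of the ANAA-MYB rescue. The libraries of MCM4, MCM5 and MCM6 did not overlap between the rescues, and those of MCM2, MCM3 and MCM7 did. MCM7, the most abundant of all 44 genes, stood at 242 ± 14.0 FPKM against 242 ± 10.4 FPKM (SD, n = 3) and hosts the microRNA genes MIR25, MIR93 and MIR106B within its bounds.

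Helicase activation held the largest difference among the 44 genes. GINS4 encodes a subunit of the 4-part GINS complex, which joins CDC45 and MCM2-7 in the active helicase. The gene (ENSG00000147536, chr8:41529261-41545030) stood at 13.1, 13.3 and 17.1 FPKM with 2KR-MYB and 31.3, 26.4 and 27.2 FPKM with ANAA-MYB. The 2KR-MYB mean was 51.3% of the ANAA-MYB mean, and the lowest ANAA-MYB library lay far above the highest 2KR-MYB library. Its log2 fold change was -0.92 (SE 0.107, limma adjusted p = 0.000714), and under all 15 alternative settings it passed the threshold, with log2 fold changes from -1.04 to -0.85. The genes next to it on chromosome 8 were lower as well, with values given further on. None of the other 3 GINS subunits passed the threshold, and 1 of them had the opposite sign. GINS3 stood at 17.2, 16.9 and 15.9 FPKM with 2KR-MYB and 15.1, 13.7 and 14.5 FPKM with ANAA-MYB, higher in each 2KR-MYB library than in any ANAA-MYB library, and its log2 fold change of 0.20 (SE 0.0583, limma adjusted p = 0.0392) did not pass. GINS1 and GINS2 had log2 fold changes of -0.11 and -0.10 with overlapping libraries. CDC45 stood at 215 ± 11.9 FPKM against 217 ± 20.1 FPKM (SD, n = 3), and MCM10, which helps the activated helicase start, at 19.7 ± 1.37 FPKM against 20.5 ± 0.881 FPKM (SD, n = 3).

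Polymerase alpha and primase showed 1 gene past the threshold. PRIM1, the catalytic primase subunit that lays down RNA primers (ENSG00000198056, chr12:56731580-56752323), stood at 57.7, 58.9 and 61.2 FPKM with 2KR-MYB and 74.0, 70.9 and 81.8 FPKM with ANAA-MYB. All 3 libraries of the 2KR-MYB rescue were below the lowest ANAA-MYB library, and the log2 fold change was -0.34 (SE 0.0601, limma adjusted p = 0.00472). Its limma adjusted p ran from 0.00317 to 0.0213 over the 15 alternatives and missed the threshold without replicate 1, 2 or 3 of the 2KR-MYB rescue (0.0213, 0.0213 and 0.011) and without the first ANAA-MYB library (0.015). POLA2, the accessory subunit of polymerase alpha, stood at 24.2, 23.4 and 21.0 FPKM with 2KR-MYB and 25.6, 30.8 and 23.7 FPKM with ANAA-MYB, with wide spread among the ANAA-MYB libraries, overlap, and a log2 fold change of -0.21 (SE 0.0975, limma adjusted p = 0.152) that was -0.10 without replicate 2 of the ANAA-MYB rescue. For PRIM2, the large primase subunit, and POLA1, the polymerase alpha catalytic subunit, the log2 fold changes were -0.08 and 0.01, both with overlap.

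Among polymerases delta and epsilon, POLE2, the second subunit of the leading-strand polymerase epsilon (ENSG00000100479, chr14:49643555-49688214), was lower in the 2KR-MYB rescue. It stood at 12.7, 13.8 and 13.9 FPKM with 2KR-MYB and 18.1, 18.6 and 16.9 FPKM with ANAA-MYB, without overlap, with a log2 fold change of -0.38 (SE 0.0611, limma adjusted p = 0.00326). Its limma adjusted p ran from 0.00225 to 0.0165 over the alternatives, and missed the threshold without the first or second 2KR-MYB library (0.014 and 0.0118) and without the first or second ANAA-MYB library (0.0153 and 0.0165). POLD1, the catalytic subunit of the lagging-strand polymerase delta, stood at 46.2, 47.9 and 44.6 FPKM with 2KR-MYB and 51.0, 52.8 and 49.98 FPKM with ANAA-MYB, without overlap, but its log2 fold change of -0.15 did not pass (SE 0.0475, limma adjusted p = 0.0536). The catalytic subunit gene POLE had a log2 fold change of -0.14, or -0.07 without replicate 1 of the 2KR-MYB rescue, and POLD2 and POLD3, which encode accessory subunits of polymerase delta, had 0.09 and -0.01, each with overlap.

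For the clamp and its loader the median log2 fold change was -0.21, and 5 of the 6 genes were below 0 although none passed the threshold. PCNA, the ring that ties the polymerases to DNA, stood at 102, 111 and 113 FPKM with 2KR-MYB and 125, 129 and 127 FPKM with ANAA-MYB, with a log2 fold change of -0.22 (SE 0.0499, limma adjusted p = 0.0133). RFC5, of the clamp loader that opens this ring, stood at 34.9, 34.7 and 38.5 FPKM with 2KR-MYB and 39.3, 45.6 and 43.99 FPKM with ANAA-MYB, with a log2 fold change of -0.25 (SE 0.0687, limma adjusted p = 0.0316). Libraries did not overlap for PCNA, RFC3, RFC4 and RFC5. RFC3 and RFC4 had log2 fold changes of -0.22 and -0.19. RFC2 had one of -0.04 (0.0028 at the highest of the alternatives), and RFC1, the large subunit, one of 0.09, both with overlap.

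Neither gene of Okazaki fragment maturation passed the threshold. FEN1, the flap nuclease, stood at 68.7, 68.1 and 69.3 FPKM with 2KR-MYB and 68.8, 69.9 and 77.1 FPKM with ANAA-MYB, with a log2 fold change of -0.06 (SE 0.0530, limma adjusted p = 0.408). LIG1, the ligase that seals the fragments, stood at 21.0, 23.1 and 21.6 FPKM with 2KR-MYB and 21.8, 21.0 and 21.3 FPKM with ANAA-MYB, with a log2 fold change of 0.03 (SE 0.0529, limma adjusted p = 0.675). In both genes the libraries overlapped.

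The 3 subunits of RPA, which coats single-stranded DNA at the fork, did not share a direction. RPA2 stood at 115, 120.2 and 117 FPKM with 2KR-MYB and 128, 134 and 139 FPKM with ANAA-MYB, with a log2 fold change of -0.18 (SE 0.0474, limma adjusted p = 0.025), while RPA3, the smallest subunit, stood at 17.7, 18.7 and 18.3 FPKM with 2KR-MYB and 15.4, 16.6 and 13.8 FPKM with ANAA-MYB, with 0.25 (SE 0.0713, limma adjusted p = 0.0363). Neither passed, and in both the rescues were fully apart. RPA1, the large DNA-binding subunit, stood at 33.1 ± 2.62 FPKM against 35.8 ± 1.72 FPKM (SD, n = 3), with overlap.

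Deoxynucleotide supply had the largest median, -0.47, and 2 of its 3 genes passed. TYMS makes the thymidine nucleotide precursor dTMP from dUMP (ENSG00000176890, chr18:657653-673578) and stood at 74.1, 71.0 and 80.6 FPKM with 2KR-MYB and 109.8, 115 and 117 FPKM with ANAA-MYB, a 2KR-MYB mean of 65.9% of the ANAA-MYB mean. Its log2 fold change was -0.60 (SE 0.0574, limma adjusted p = 0.000334), beside a median of -0.40 among its neighbours on chromosome 18. RRM2, the small subunit of ribonucleotide reductase, which makes deoxynucleotides from ribonucleotides (ENSG00000171848, chr2:10122568-10211010), stood at 105, 110.4 and 102 FPKM with 2KR-MYB and 138, 151 and 152 FPKM with ANAA-MYB, a 2KR-MYB mean of 72.1% of the ANAA-MYB mean, with a log2 fold change of -0.47 (SE 0.0541, limma adjusted p = 0.000724). Both genes had libraries fully apart and passed under all 15 alternatives, with log2 fold changes from -0.65 to -0.55 for TYMS and -0.51 to -0.42 for RRM2. RRM1, the large subunit, stood at 89.0 ± 3.19 FPKM against 97.7 ± 3.66 FPKM (SD, n = 3), also apart, but its log2 fold change of -0.13 (SE 0.0490, limma adjusted p = 0.0805) did not pass. The processed pseudogene RRM2P3, a near copy of RRM2, was listed at 0.335 to 0.983 FPKM, and how reads were divided between copies is not given in the sources used here.

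**Figure D3:**
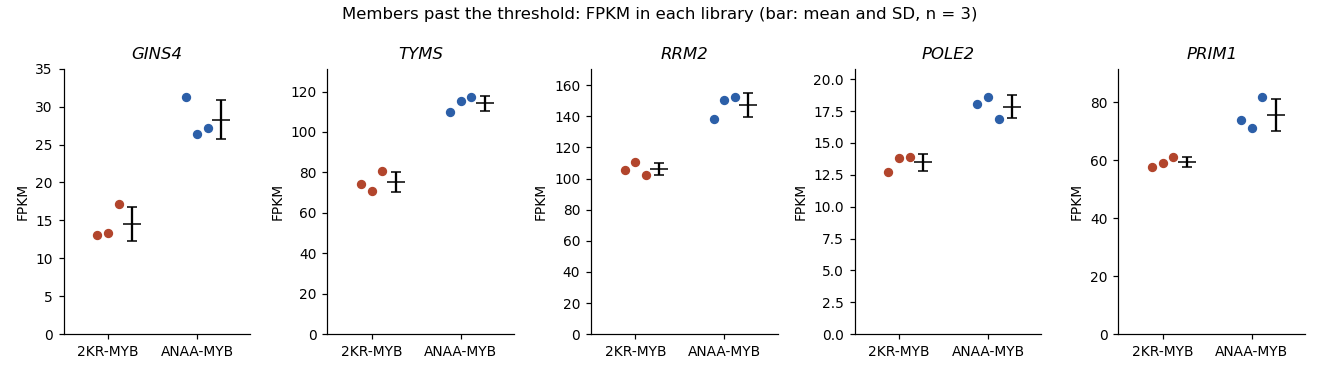
FPKM of GINS4, TYMS, RRM2, POLE2 and PRIM1 in each library, with the mean and SD of 3 libraries beside the points and axes from 0. In each panel the 3 libraries of the 2KR-MYB rescue lie below the 3 of the ANAA-MYB rescue, by the largest step in GINS4.

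To set subunits of the same complex against each other directly, ratios of partner genes were taken within a library, where scaling between libraries cancels. These pairs were chosen after their values were seen and the ratios are a description. GINS4 over GINS3 was 0.763, 0.788 and 1.08 in the 2KR-MYB rescue and 2.08, 1.93 and 1.88 in the ANAA-MYB rescue. The 2KR-MYB mean of this ratio over its ANAA-MYB mean was 0.446. It was 0.553 for GINS4 over GINS1 and 0.546 for GINS4 over GINS2. PRIM1 over PRIM2 was 1.89, 1.84 and 1.91 in the 2KR-MYB rescue and 2.44, 1.98 and 2.39 in the ANAA-MYB rescue. For POLE2 over POLE the ratio was 0.483, 0.439 and 0.461 in the 2KR-MYB rescue and 0.559, 0.563 and 0.536 in the ANAA-MYB rescue. The GINS4 ratios, PRIM1 over PRIM2 and POLE2 over POLE were lower in every 2KR-MYB library than in any ANAA-MYB library. RRM2 over RRM1, the 2 subunits of ribonucleotide reductase, was likewise lower, at 1.23, 1.24 and 1.11 in the 2KR-MYB rescue and 1.48, 1.52 and 1.52 in the ANAA-MYB rescue. RPA3 over RPA2 ran the other way, at 0.154, 0.156 and 0.157 in the 2KR-MYB rescue and 0.121, 0.124 and 0.0995 in the ANAA-MYB rescue. So did CDC6 over CDT1, at 2.23, 2.36 and 3.19 in the 2KR-MYB rescue and 1.61, 1.70 and 1.81 in the ANAA-MYB rescue. CDT1 over GMNN was lower by a narrow margin, at 0.310, 0.310 and 0.207 against 0.347, 0.311 and 0.322. The 2 enzymes TYMS and RRM2 kept overlapping ratios to each other, of 0.704, 0.643 and 0.787 in the 2KR-MYB rescue and 0.795, 0.766 and 0.770 in the ANAA-MYB rescue.

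**Figure D4:**
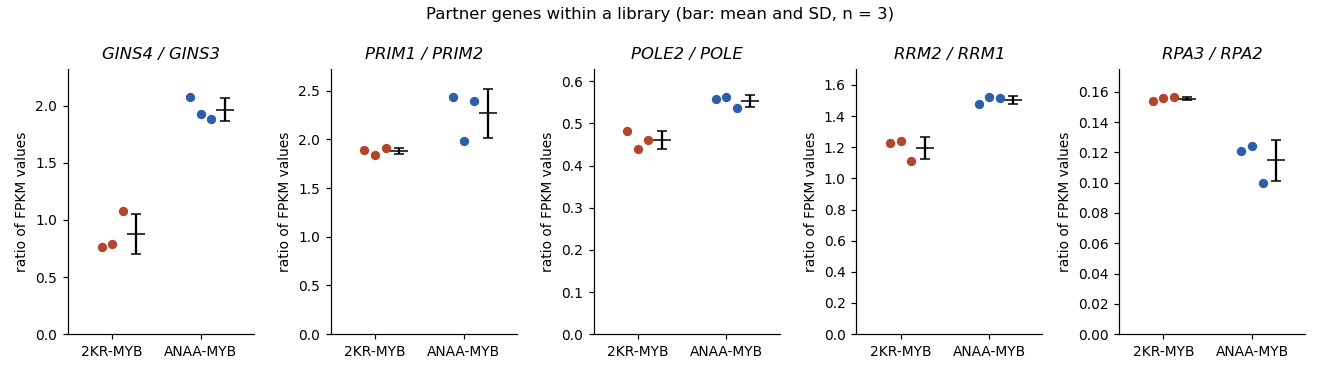
Ratio of the FPKM values of 5 pairs of partner genes within each library, with the mean and SD of 3 libraries beside the points and axes from 0. GINS4/GINS3, PRIM1/PRIM2, POLE2/POLE and RRM2/RRM1 are lower in the 2KR-MYB rescue, RPA3/RPA2 is higher, and in each panel the rescues do not overlap.

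Since each rescue was 1 clone, the tested genes on either side of each replication gene, up to 10 on each side, were set beside it. The 44 genes lie on 19 chromosomes. For 43 of them all 20 neighbours could be read. The TYMS gene lies near the end of the short arm of chromosome 18 and had 13 tested neighbours, 3 of them on the telomere side. All 13, from USP14 to MYL12B, had log2 fold changes below 0, with a median of -0.40, and 8 passed the threshold. Among all tested genes, 7.42% passed as lower. ADCYAP1, among these 8, stood at 0.493 against 6.33 FPKM. It reached the mean of 1 FPKM needed for testing through the ANAA-MYB libraries alone, so its call depended on the group where it is high. USP14 stood at 56.4 against 81.9 FPKM, YES1 at 28.9 against 39.3 FPKM and METTL4 at 13.1 against 18.5 FPKM. ENOSF1, which overlaps TYMS, stood at 10.4 against 14.0 FPKM (log2 fold change -0.40, limma adjusted p = 0.00731), and TYMSOS, which also overlaps it, at 1.204 against 1.78 FPKM. Whether reads were assigned by strand is not given in the sources used here. The log2 fold change of TYMS less the median of its neighbours was -0.20. For TYMS, the mutant MYB and a clone-specific difference along this stretch cannot be told apart.

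GINS4, on the short arm of chromosome 8, also lay among neighbours that were lower. Of its 20 neighbours 15 had log2 fold changes below 0, with a median of -0.16 that became -0.34 for 5 genes on each side and -0.13 for 25. Of the 20, 6 passed the threshold, all as lower, against 7.42% of all tested genes. The gene next to it on either side was among these, with GOLGA7 at 77.6 against 104 FPKM (log2 fold change -0.41) and GPAT4, an enzyme of glycerolipid synthesis, at 29.2 against 50.2 FPKM (-0.76). ANK1, which encodes the red cell ankyrin, had -0.56 and the acetyltransferase gene KAT6A had -0.46. GINS4 less the median of its neighbours was -0.76, and clone and mutant cannot be told apart here either. The neighbours of PRIM1, POLE2 and RRM2 had medians of 0.04, -0.02 and -0.02, so these genes differed from their surroundings by -0.39, -0.36 and -0.45. With 1 clone for each mutant, clone and mutant cannot be told apart for these genes either. Without TYMS, the medians around the members ran from -0.20, around POLD1, to 0.15, around MCM10.

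The promoters of the genes that passed are shown because these genes are classical S phase genes and their start regions differ in the motifs they hold. RefSeq promoters on GRCh38.p14, 250 bases before to 50 after the start in the table, were matched to 38 of the 44 genes by symbol, among them 4 of the 5 that passed. MCM4, MCM5, GINS4, POLD3, RPA2 and RPA3 had no entry. The motifs searched on both strands were the E2F-type letters TTTGGCGC, TTTCCCGC, TTTGGCGG and TTTCGCGC, the CCAAT box CCAAT, the MYB-type core AACNG, with N for any base, and the cell cycle homology element TTTGAA. Sequences run 5′ to 3′ on the strand of the gene, and capitals mark E2F-type motifs (8 letters) and CCAAT boxes (5 letters) on either strand.
PRIM1 (chr12:56752274-56752573, minus strand): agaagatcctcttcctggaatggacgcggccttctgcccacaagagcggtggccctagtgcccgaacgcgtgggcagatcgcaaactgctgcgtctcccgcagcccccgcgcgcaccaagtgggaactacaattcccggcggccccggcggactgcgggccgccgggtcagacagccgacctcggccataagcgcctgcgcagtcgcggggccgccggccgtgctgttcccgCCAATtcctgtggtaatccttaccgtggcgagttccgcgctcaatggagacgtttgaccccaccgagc
POLE2 (chr14:49688165-49688464, minus strand): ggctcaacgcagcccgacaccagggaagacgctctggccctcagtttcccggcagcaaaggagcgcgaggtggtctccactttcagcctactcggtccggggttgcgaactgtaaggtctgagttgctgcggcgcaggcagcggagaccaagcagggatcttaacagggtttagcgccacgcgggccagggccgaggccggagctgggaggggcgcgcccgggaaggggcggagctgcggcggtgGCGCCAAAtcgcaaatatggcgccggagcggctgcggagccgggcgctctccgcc
RRM2 (chr2:10122489-10122788, plus strand): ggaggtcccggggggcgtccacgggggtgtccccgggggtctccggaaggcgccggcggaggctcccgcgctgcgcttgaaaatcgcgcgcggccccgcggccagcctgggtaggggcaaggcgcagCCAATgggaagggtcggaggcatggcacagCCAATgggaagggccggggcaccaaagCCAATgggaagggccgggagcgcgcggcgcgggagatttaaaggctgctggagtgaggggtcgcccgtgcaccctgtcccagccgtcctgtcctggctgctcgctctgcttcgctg
TYMS (chr18:657403-657702, plus strand): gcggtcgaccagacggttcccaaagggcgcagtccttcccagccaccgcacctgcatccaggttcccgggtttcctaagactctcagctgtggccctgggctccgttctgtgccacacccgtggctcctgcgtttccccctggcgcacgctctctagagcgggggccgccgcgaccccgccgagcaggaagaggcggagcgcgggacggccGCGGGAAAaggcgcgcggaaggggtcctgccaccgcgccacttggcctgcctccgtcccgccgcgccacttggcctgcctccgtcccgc

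PRIM1 held 1 CCAAT box and no E2F-type motif, RRM2 held 3 CCAAT boxes and no E2F-type motif, and POLE2 and TYMS each held 1 E2F-type motif and no CCAAT box. No motif of the 2 kinds was shared by all 4, and each kind was in 2 of the 4. A missing match says only that these letters are not in the window.

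Over the whole family the E2F-type letters were more frequent than in promoters at large, as a description with no test. They were in 21 of the 38 promoters (55.3%), against 3.35% of the 35116 promoters in the table and 5.99% of the 9301 promoters of tested genes. The CCAAT box was in 22 (57.9%), against 34.6% and 37.6%. The MYB-type core, 5 letters long with 1 free, was in 33 (86.8%), against 77.2% and 75.2%, and the cell cycle homology letters, typical of late cell cycle genes, were in 1 promoter (2.63%), that of RRM1, against 15.2% and 9.68%. To show how the E2F-type letters are set in members whose libraries were apart, stretches of 4 more promoters follow, with the same use of capitals. Motifs that touch or overlap run together in CDT1 and MCM6.
CDC6 (chr17:40287819-40287918, plus strand): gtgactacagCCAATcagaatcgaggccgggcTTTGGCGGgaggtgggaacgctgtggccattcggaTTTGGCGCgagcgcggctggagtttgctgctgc
CDT1 (chr16:88803729-88803828, plus strand): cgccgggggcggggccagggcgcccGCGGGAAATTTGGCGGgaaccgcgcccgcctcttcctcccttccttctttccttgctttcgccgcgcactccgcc
MCM6 (chr2:135876494-135876613, minus strand): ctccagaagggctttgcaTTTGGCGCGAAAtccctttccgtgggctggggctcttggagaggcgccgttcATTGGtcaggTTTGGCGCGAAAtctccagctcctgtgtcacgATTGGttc
PCNA (chr20:5126633-5126782, minus strand): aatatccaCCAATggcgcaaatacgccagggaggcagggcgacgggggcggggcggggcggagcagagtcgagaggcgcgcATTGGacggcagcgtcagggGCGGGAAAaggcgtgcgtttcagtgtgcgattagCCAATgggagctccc

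CDC6 and CDT1 each held 2 E2F-type motifs near the start, and had log2 fold changes of 0.20 and -0.37, opposite in sign. MCM6 held 4, in a pair of overlapping matches at each of 2 places, and PCNA held 1 with 3 CCAAT boxes. The log2 fold changes of MCM6 and PCNA were -0.16 and -0.22, and none of the 4 genes passed the threshold.

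Other genes of the same process, from lists that the members were not part of, were read in the same fit. Of 33 other replication fork genes 27 had log2 fold changes below 0 (81.8%, against 53.2% of all tested genes), with a median of -0.08. Of the 33, 1 passed the threshold as lower (3.03%, against 7.42% of all tested genes). That gene, CHTF18, of an alternative clamp loader that also serves sister chromatid cohesion, stood at 13.6, 14.6 and 13.9 FPKM against 19.1, 18.7 and 18.0 FPKM (2KR-MYB first), with a log2 fold change of -0.39 (SE 0.0536, limma adjusted p = 0.00171). Of 14 other nucleotide supply genes 11 were below 0 (78.6%), with a median of -0.10. Of the 14, 1 passed as lower (7.14%, again against 7.42%). That gene, UMPS, of uridine monophosphate synthesis, stood at 17.6, 18.2 and 18.1 FPKM against 21.1, 22.0 and 24.3 FPKM. Its log2 fold change was -0.30 (SE 0.0612, limma adjusted p = 0.00869). With upper quartile scaling and quantile normalization, 24 and 25 fork genes and 10 and 10 nucleotide supply genes were below 0, beside 45.0% and 49.1% of all tested genes. The median of the nucleotide supply genes ranged from -0.15 without replicate 1 to -0.04 without replicate 3 of the ANAA-MYB rescue, and was -0.05 without replicate 1 of the 2KR-MYB rescue. UMPS missed the threshold when any 1 of the 6 libraries was left out. At an adjusted p under 0.05 from limma, 9 fork genes and 4 nucleotide supply genes were lower (27.3% and 28.6%, against 14.9% of all tested genes). None was higher in either list, against 12% of all tested genes. At an unadjusted limma p under 0.05 there were 1 and 0 higher, beside 2249 of all 12634 tested genes.

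The regulators of the G1 to S step were split in direction. Of 32 E2F and RB family genes, S phase cyclins, their kinases and inhibitors, 16 were below 0 and 16 were not. Of the 32, 4 passed as lower (12.5%, against 7.42% of all tested genes) and 2 as higher. That was 18.75% in either direction, against 13% of all tested genes. This count of 6 dropped to 3 without the second 2KR-MYB library and without each of the ANAA-MYB libraries in turn. CCND1, cyclin D1, was low in both rescues, at 0.586, 0.409 and 0.378 FPKM against 2.97, 3.20 and 3.08 FPKM, with a log2 fold change of -1.49 (SE 0.102, limma adjusted p = 7.59e-05). It reached the mean of 1 FPKM needed for testing through the ANAA-MYB libraries alone, so its call depended on the group where it is high, and at a minimum mean of 5 FPKM it was not tested and the list had 3 lower. CDKN1A, the CDK inhibitor p21, ran the other way, at 10.0, 10.7 and 8.51 FPKM against 3.59, 4.03 and 3.37 FPKM, with 1.199 (SE 0.0952, limma adjusted p = 0.000136). CCNE1, cyclin E1, which drives entry into S phase, stood at 16.8, 16.6 and 17.2 FPKM against 21.8, 22.9 and 23.9 FPKM, with -0.42 (SE 0.0528, limma adjusted p = 0.00109). The kinase gene CDK6 had a log2 fold change of -0.32 (SE 0.0586, limma adjusted p = 0.00564), and E2F6, a repressor of the E2F family, one of -0.31 (SE 0.0566, limma adjusted p = 0.00592). In all 5 the rescues did not overlap. CDK6 missed the threshold without any 1 of the 6 libraries, and E2F6 passed in 1 of these 6 fits, without the first 2KR-MYB library.

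G2 and mitosis genes, the group of the cell cycle most like the replication genes in kind, had log2 fold changes on both sides of 0, with a median above it. Of 20 such genes 19 were tested, of which 3 had log2 fold changes below 0, with a median of 0.05, and none passed the threshold by limma, with 4 higher and 2 lower at an unadjusted p under 0.05. The count below 0 rested on single libraries: it was 6 without replicate 2 and 5 without replicate 3 of the 2KR-MYB rescue, and 8 without replicate 1 and 7 without replicate 2 of the ANAA-MYB rescue, while the median stayed between 0.03 and 0.07 in the 6 such fits. With upper quartile scaling and with quantile normalization 1 passed as higher, CCNB2, cyclin B2, named after its value was seen. Less the median of all tested genes, the median deviation of the list was 0.02, 0.06 and 0.0007 in the 2KR-MYB libraries and -0.08, -0.06 and 0.0088 in the ANAA-MYB libraries, which overlap, while those of the replication genes did not. The difference between the 2 lists was not tested.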

How the data were processed

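RNA-Seq of 6 K562 libraries was analysed, 3 of the 2KR-MYB and 3 of the ANAA-MYB rescue, grouped by their labels. Per the submitters' notes, the authors used bcl2fastq 2.18.0.12, Trimmomatic 0.36, TopHat2 2.1.1 on GRCh38, Cufflinks and Cuffdiff 2.2.1, and deposited FPKM per gene and replicate from strand-specific poly(A) libraries with 150 bp paired reads. No annotation and no scaling between libraries is named in these notes or the paper. The depth is not known, since at most 7.40% of ratios of values under 0.5 FPKM fell within 1% of a common step, so no reads were recovered and no count test was run. Another 12 columns of per-sample values were not used.

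The 58288 gene identifiers held 0 duplicates, and 55854 had a symbol. The 12634 genes whose mean over the 6 libraries was 1 FPKM or more entered limma 3.58.1 (R 4.3.3) as log2(FPKM + 1) (rescue as the only term, empirical Bayes with trend, two-sided, Benjamini-Hochberg over all 12634, threshold 0.01). Single genes also had an exact two-sided permutation test. The fit was tested on simulated data. Positions came from RefSeq on GRCh38.p14 by Ensembl identifier, or by symbol where no identifier matched, for 11541 tested genes. Promoters came from RefSeq on the same build by symbol. Counts, ratios and figures were made with Python 3.11.15, pandas 2.3.3, numpy 2.4.6, scipy 1.17.1 and matplotlib 3.10.9.

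The members and all lists (fork, nucleotide supply, E2F and RB family, G2 and mitosis, erythroid, lymphoid, fibroblast, megakaryocyte and mitochondrial genes) were chosen with earlier results of these data known. Values per library are given for genes past the threshold and the 2 genes of each role with the smallest adjusted p. Of each other list, at most 5 genes past the threshold, those with the smallest adjusted p, are named, beside MYB. Genes outside this rule are said to be so, or are named as neighbours or markers. Other settings tried were pseudocounts of 0.1 and 0.01, no filter or a minimum mean of 5 FPKM, scaling by the upper quartile or by quantiles, robust empirical Bayes, a block for the replicate number, fits without each library, a threshold of 0.05, and windows of 5 and 25 neighbours.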

Additional observations from a re-analysis of the deposited data

How the results depend on the processing

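GINS4, RRM2 and TYMS passed the threshold under all 15 alternatives, and the 5 replication genes that passed were below 0 under every alternative. Without a filter on low values, 3 replication genes passed, all 3 lower, with 0 nucleotide supply genes and 942 of all tested genes; PRIM1 and POLE2 were the ones lost, and more genes were tested. With upper quartile scaling and with quantile normalization 1 G2 and mitosis gene passed, and the median log2 fold change of the replication genes was -0.061 with the latter. The split of all calls was 704 higher and 938 lower as deposited, 949 and 792 with upper quartile scaling, and 849 and 861 with quantile normalization, so more calls were higher than lower with the first of these. In the E2F and RB family 2 higher and 4 lower became 3 and 3 with either scaling and 3 and 2 without replicate 3 of the 2KR-MYB rescue. Replicate numbers did not pair the samples, since same-numbered libraries deviated together with correlations of -0.052, -0.035 and -0.003. With the replicate number as a block, 4 replication genes passed, with POLE2 lost at a limma adjusted p of 0.0109 (0.00225 to 0.0165 over its alternatives), beside 0 nucleotide supply genes, 3 E2F and RB family genes and 1089 of all tested genes.

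Leaving out each library in turn gave 3 to 5 replication genes past the threshold, 3 to 5 of them lower, 0 to 0 nucleotide supply genes, 3 to 5 E2F and RB family genes and 831 to 1139 of all tested genes, in fits with fewer samples. The median log2 fold change of the replication genes ran from -0.15 to -0.07 in these fits. At an adjusted p under 0.05 from limma the counts were 14 replication genes (2 higher, 12 lower), 9 fork genes, 4 nucleotide supply genes, 11 E2F and RB family genes, 4 G2 and mitosis genes and 3402 of all tested genes. The 1 fork gene that passed did so under each alternative at the threshold of 0.01. Where no cause is named for a change, the cause was not tested. The unknown depth means that no counting error could be set on any FPKM value, and p-values measure the spread among replicates of 1 clone.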

Other observations

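The erythroid markers that identify K562 were not level between the rescues. Of 14 genes, 4 were lower with 2KR-MYB by limma. KLF1, the erythroid Krüppel-like factor, stood at 20.2, 19.8 and 17.6 FPKM with 2KR-MYB and 30.1, 30.6 and 31.5 FPKM with ANAA-MYB, and GATA1 at 79.0, 74.9 and 80.6 FPKM and 111, 107 and 105 FPKM. NFE2 and the transferrin receptor gene TFRC were lower too, with log2 fold changes of -0.40 and -0.29. The libraries did not overlap in any of these 4 genes. Of the other marker lists, the lymphoid CD3D was lower and PTPRC higher. Of the 6 fibroblast markers 2 were tested, COL1A1 and COL1A2, and the former reached the mean of 1 FPKM through the 2KR-MYB libraries alone (2.13 against 0.553 FPKM), so its test is not read. COL1A2 stood at 1.06 against 2.42 FPKM. Of the 6 megakaryocyte markers 2 were tested, ITGA2B and ITGB3, with log2 fold changes of -0.57 and -0.46. Neither passed (limma adjusted p = 0.0424 and 0.0143), and in both the libraries did not overlap. None of 8 mitochondrial transcripts passed by limma. At an unadjusted limma p under 0.05 both megakaryocyte genes were lower, with 0 mitochondrial transcripts in either direction.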
